A study of Sus scrofa with 8 samples.

Results

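Pig limb tissue that is labelled as knockout for MYF5, MYOD (MYOD1) and MYF6 was compared between embryonic day 41 (E41) and embryonic day 62 (E62). The comparison took the 2 knockout libraries titled E62 against the 2 knockout libraries titled E41, which are 4 of the 8 libraries in the series, over all 22516 genes of the deposited count table. The other 4 libraries are wild-type limb muscle, 2 at each stage, and served to show where the knockout differed. All 8 libraries were fitted together, so the wild type also entered the filter, the scaling and the estimate of spread. All 8 libraries are bulk RNA sequencing of total RNA from pig limb tissue labelled as muscle. The samples are titled knockout and biological replicate, the series title says knockdown, and the growth protocol names E60 where the titles name E62. Neither the edited alleles nor the parentage of the embryos is given. Both E41 knockout library names share 1 number and both E62 knockout names share another, so stage cannot be told apart from any litter or preparation batch that these numbers mark. The E62 knockout names also lack an ending that all other library names carry, and stage cannot be told apart from whatever it marks. The kit is given as TruSeq RNA or Stranded, so genes and antisense partners cannot be told apart. All 4 knockout names carry the code RHL, which the wild-type E62 names share, whereas the wild-type E41 names carry LHL; the labels do not expand either code. With 2 libraries a group, p-values measure the spread between these samples only.

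MYF5, MYOD1 and MYF6 are transcription factors that commit progenitor cells to skeletal muscle and, with MYOG, drive their differentiation. Muscle progenitors of the limb migrate in from the somites under the control of PAX3, LBX1 and MET, while the limb's connective tissue, tendon, cartilage and bone arise from the lateral plate mesoderm. Nerve, Schwann cells, vessels, blood cells and fat share the limb with them, and as a fetus grows, patterning genes of the limb bud are generally switched off while matrix and fat cell genes come on.

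The 4 knockout libraries held no count for MYF5 or MYF6. MYOD1 had 28 and 20 counts in replicates 1 and 2 at E41 and 77 and 88 counts at E62, against 1503 to 5715 counts in the wild-type libraries. MYOG, the factor of terminal differentiation, had at most 2 counts in any knockout library. The summed level of 30 skeletal muscle fibre genes was summed as CPM, the count scaled by the TMM-adjusted library total to a common size, and lay between 26.7 and 36.2 CPM in the knockout libraries and between 34710 and 77843 CPM in the wild-type libraries. Muscle fibre transcripts, which define the labelled tissue, were thus near 0 in the knockout libraries and abundant in the wild-type libraries.

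Library totals ran from 42352383 to 60539245 estimated counts in the knockout and from 23402052 to 37676855 in the wild type. Summed marker levels differed within both knockout pairs. Summed over 22 cartilage genes, KO E41 replicate 2 reached 7381 CPM against 1365 CPM in replicate 1 and at most 652 CPM at E62. Summed over 21 skin epithelium genes, KO E62 replicate 2 held 74.8 CPM while the other 3 knockout libraries held 1374 to 2312 CPM. In bulk tissue, fewer cells of a type and less RNA per cell cannot be told apart.

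**Figure D1:**
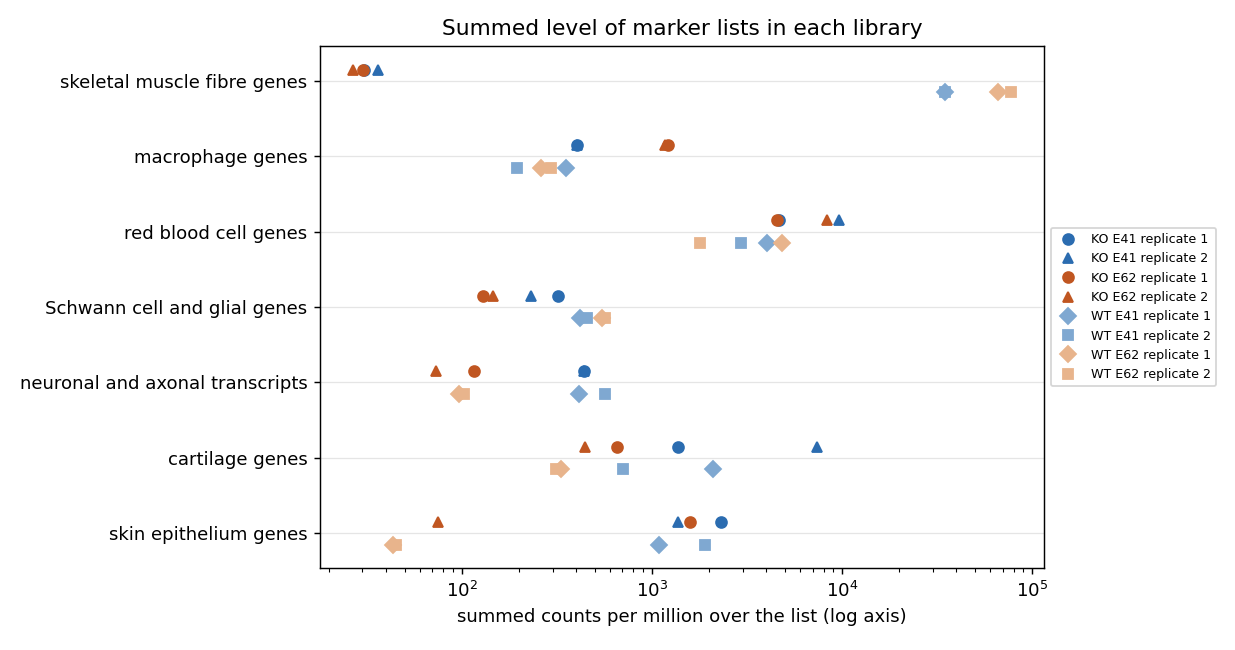
Summed level of 7 marker lists in each library, in CPM on a log axis; blue marks E41, orange E62, darker circles and triangles knockout replicates 1 and 2, paler diamonds and squares wild-type replicates 1 and 2. Knockout libraries sit at 26.7 to 36.2 CPM for muscle fibre genes, KO E41 replicate 2 stands apart for cartilage genes at 7381 CPM, and KO E62 replicate 2 stands apart for skin genes at 74.8 CPM.

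Between E41 and E62 the knockout tissue changed widely. Of 17020 genes tested, 5126 (30.1%) passed an adjusted p of 0.05 in edgeR's quasi-likelihood test with Benjamini-Hochberg adjustment, 2065 (12.1%) higher at E62 and 3061 (18.0%) lower. List counts below are to be read against these shares. The change was at least 2-fold for 2162 of the 5126 genes and at least 8-fold for 307. The median change over all tested genes was -0.03 on the log2 scale. The split depended on scaling and filter: library size alone gave 2388 higher and 2590 lower with a median of 0.02, relative log expression factors 2342 and 2707, a filter of 1 CPM 2451 and 2543, and the knockout groups fitted alone 2552 and 2619. Leaving out KO E41 replicate 1 brought the total to 1906, leaving out KO E41 replicate 2 to 2245, and leaving out KO E62 replicate 2 to 2970, against 4278 for KO E62 replicate 1. Of the 5126 genes, 0 changed direction in any of these fits that tested them.

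The 12 largest rises included 3 genes of the fat cell list and 2 collagen VI genes. Below, CPM values are given for replicates 1 and 2 in that order. A change is the fitted log2 difference, E62 minus E41, with its standard error. The 12 rises and the 12 falls were selected to have no overlap between stages, and most list genes were selected by low p. Lack of overlap, where it is stated here and below, describes the values and is no separate evidence. ADIPOQ, which encodes the fat cell hormone adiponectin, was at 0.0215 and 0.152 CPM at E41 and at 5.71 and 17.9 CPM at E62 (7.04 ± 0.99, edgeR adjusted p = 0.0039). Both E62 libraries were far above both E41 libraries, and the change ran from 5.99 to 8.90 when 1 knockout library at a time was left out. COL6A6 and COL6A5 encode collagen VI alpha chains and are neighbours in the RefSeq annotation of Sscrofa11.1, at chr13:1817475-1985968 and chr13:2029543-2174404, with 43574 bases between them. COL6A6 went from 22.9 and 31 CPM to 1235 and 1026 CPM (5.39 ± 0.65, edgeR adjusted p = 0.0043). COL6A5 went from 0.0431 and 0.109 CPM to 10.4 and 7.83 CPM (6.86 ± 0.82, edgeR adjusted p = 0.0019), with a change of 6.35 to 7.62 over the same left-out libraries. Neither gene's stages overlapped, as the selection required.

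C4A, a component of the complement cascade, was at 4.43 and 5.67 CPM at E41 and 88.9 and 186 CPM at E62 (4.76 ± 0.47, edgeR adjusted p = 0.0023). FCN2, a ficolin that triggers the lectin arm of complement, rose from 3.51 and 2.89 CPM to 39.2 and 126 CPM (4.69 ± 0.60, edgeR adjusted p = 0.0047), and the nucleotide-hydrolysing ectoenzyme ENPP3 from 0.495 and 0.977 CPM to 8.2 and 23.4 CPM (4.42 ± 0.68, edgeR adjusted p = 0.0051). For all 3 genes KO E62 replicate 2 was the highest library, and without it the changes were 4.14, 3.61 and 3.47. C4A has near-identical copies in many genomes, among which estimated counts divide reads, so its level is uncertain. PAX5, a regulator of B cells, stood at 2.36 and 15.3 CPM at E62 and at 0.538 and 0.217 CPM at E41 (4.53 ± 0.94, edgeR adjusted p = 0.014). Its rise was 2.63 without KO E62 replicate 2, and its adjusted p was 0.062 and 0.088 without KO E41 replicate 1 or 2. OLR1, a scavenger receptor for oxidised lipoprotein, rested on KO E62 replicate 1, with 11.7 and 0.751 CPM at E62 (5.15 ± 1.32, edgeR adjusted p = 0.03), and its change was 2.09 with an adjusted p of 0.08 without that library while its adjusted p was 0.16 without either E41 library. Of the 12 largest rises, 10 passed the threshold whichever knockout library was left out.

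The 12 largest falls held regulators of limb pattern, receptors, secreted factors and genes of cartilage and tendon. PITX1, a homeodomain factor of hindlimb identity, fell from 164 and 146 CPM to 3.6 and 2.32 CPM (-5.70 ± 0.29, edgeR adjusted p = 0.00029). MAB21L2, a developmental regulator, fell from 41.8 and 58.1 CPM to 0.413 and 0.467 CPM (-6.82 ± 0.44, edgeR adjusted p = 0.00047). SSTR1, a somatostatin receptor, fell from 53.3 and 42.6 CPM to 1.55 and 1.37 CPM (-5.03 ± 0.59, edgeR adjusted p = 0.0031). In these 3 genes each pair of replicates lay close together and the stages were far apart. NRTN, a neurotrophic ligand of the GDNF family, was at 5.45 and 2.97 CPM at E41 and 0.192 and 0.0501 CPM at E62 (-5.06 ± 0.85, edgeR adjusted p = 0.0053), with a change of -4.44 to -6.31 over the left-out libraries. GABRP, a GABA receptor subunit, fell from 90.1 and 55.8 CPM to 0.679 and 0.0667 CPM (-7.55 ± 1.04, edgeR adjusted p = 0.013), a change of -6.74 to -10.03 over the left-out libraries, but without KO E41 replicate 1 or 2 its adjusted p was 0.07 and 0.054. Only 6 of the 12 falls passed the threshold whichever knockout library was left out, and HAPLN1 and CYTL1 of the cartilage list, COMP of the tendon list and ITGBL1 were not among them. These 4 genes were all higher in KO E41 replicate 2, which was also the library high for the cartilage list, than in KO E41 replicate 1.

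**Figure D2:**
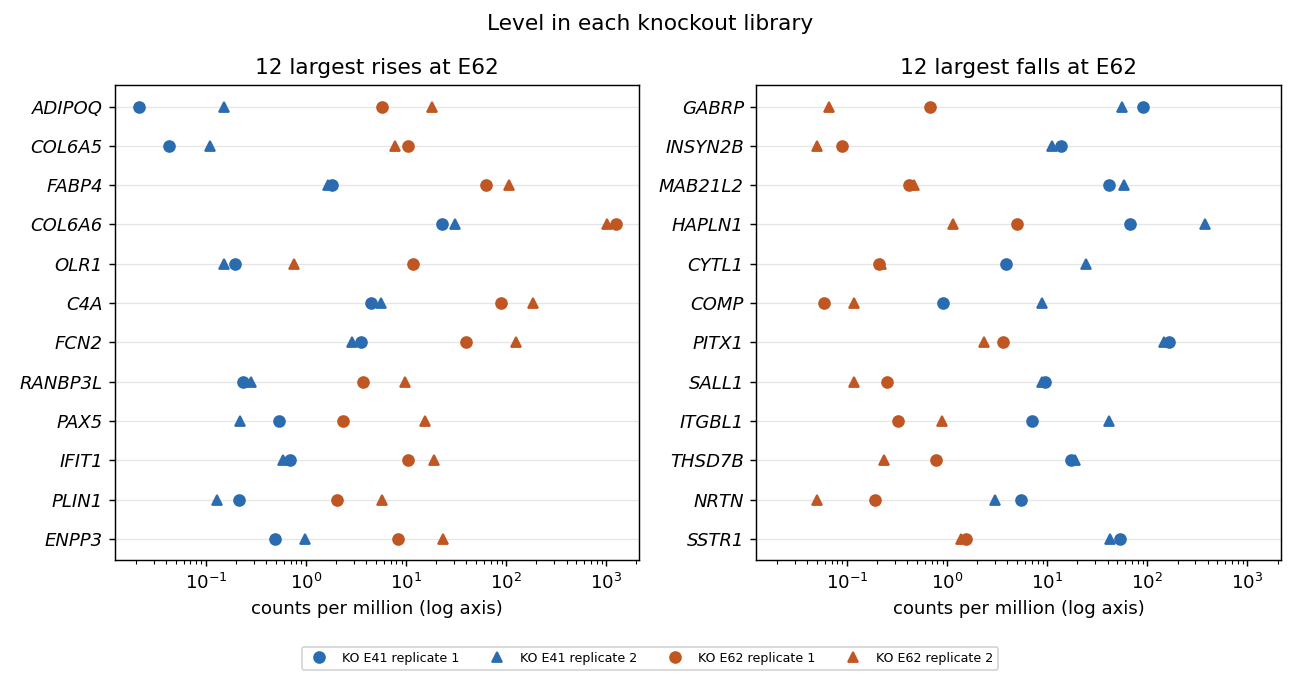
Level of the 12 genes with the largest rise (left) and the 12 with the largest fall (right) in each of the 4 knockout libraries, in CPM on a log axis; blue is E41, orange is E62, circles are replicate 1 and triangles replicate 2. The stages do not overlap for any gene, as the selection required, and the replicates lie far apart for OLR1 at E62 and for HAPLN1, CYTL1, COMP and ITGBL1 at E41.

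Fat cell genes went both ways. Of 24 tested genes of this list, 9 were higher and 5 lower at E62, with a median of 0.16 against -0.03 over all genes. PPARG, the nuclear receptor that commits cells to fat, was at 4.63 and 4 CPM at E41 and 32.4 and 48.2 CPM at E62 (3.22 ± 0.32, edgeR adjusted p = 0.0011). FABP4, a fatty acid carrier of fat cells, was at 1.81 and 1.65 CPM and then at 62.7 and 106 CPM (5.60 ± 0.32, edgeR adjusted p = 0.00029). PLIN1, which coats the lipid droplet, rose from 0.215 and 0.13 CPM to 2.04 and 5.72 CPM (4.46 ± 0.68, edgeR adjusted p = 0.0037); its change was 3.53 without KO E62 replicate 2. The stages did not overlap for any of these genes.

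Other genes of the list fell. FASN, the fatty acid synthase, was at 233 and 206 CPM at E41 and at 132 and 134 CPM at E62 (-0.72 ± 0.09, edgeR adjusted p = 0.0022). AGPAT2, an acyltransferase on the route to triglyceride, fell from 13.4 and 9.9 CPM to 3.41 and 3.04 CPM (-1.85 ± 0.31, edgeR adjusted p = 0.0059). Both genes had higher levels in each E41 library than in either E62 library. The other 3 that fell were ACACA, SCD and PNPLA3, which were chosen after their values were seen. The lipase gene LPL, chosen likewise, did not pass the test and its stages overlapped, at 14.2 and 25.9 CPM and 20.2 and 28 CPM (0.26 ± 0.29, edgeR adjusted p = 0.51). Leaving out KO E41 replicate 1 gave 6 higher and 2 lower, KO E41 replicate 2 gave 6 and 3, KO E62 replicate 1 gave 9 and 5 and KO E62 replicate 2 gave 7 and 4. With KO E41 replicate 1 left out the list's median was -0.02, and with KO E62 replicate 2 left out -0.03.

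Collagen genes changed unevenly, with 3 of 20 tested genes higher and 6 lower and a median of 0.11. COL5A3, an alpha chain of collagen V, rose from 121 and 98.3 CPM to 405 and 510.4 CPM (2.06 ± 0.20, edgeR adjusted p = 0.00099). COL6A1 and COL6A2, the core chains of collagen VI, fell while COL6A5 and COL6A6 rose. COL6A1 was at 1096 and 1109.8 CPM at E41 and 494 and 546 CPM at E62 (-1.08 ± 0.14, edgeR adjusted p = 0.0023). COL6A2 was at 511 and 492 CPM and 218 and 217 CPM (-1.21 ± 0.10, edgeR adjusted p = 0.00052). Replicates of both core chains were nearly equal within each stage. COL8A1, a short-chain collagen of vessel walls, fell from 73 and 106 CPM to 12.1 and 6.96 CPM (-3.23 ± 0.42, edgeR adjusted p = 0.0041). The fibrillar collagen genes COL1A1 (0.69 ± 0.35, edgeR adjusted p = 0.17) and COL1A2 (0.55 ± 0.33, edgeR adjusted p = 0.24), chosen like COL3A1 after their values were seen, did not pass the test. COL3A1 went from 19341 and 19619 CPM to 42128 and 47238 CPM (1.20 ± 0.34, edgeR adjusted p = 0.035). Leaving out KO E41 replicate 1 gave 1 higher and 4 lower collagen genes, KO E41 replicate 2 and KO E62 replicate 1 each gave 2 and 5, and KO E62 replicate 2 gave 1 and 6.

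In the list of elastic fibre, proteoglycan and crosslinking genes, 4 of 26 tested genes were higher and 10 lower (median -0.46). FBLN5, a fibulin needed to assemble elastin, fell from 204 and 231 CPM to 98.6 and 96.1 CPM (-1.16 ± 0.12, edgeR adjusted p = 0.0011). LOXL1, a lysyl oxidase that crosslinks elastin, fell from 221 and 196 CPM to 67.5 and 90.2 CPM (-1.40 ± 0.14, edgeR adjusted p = 0.0011), and PLOD1, a lysyl hydroxylase of collagen, from 400.4 and 467 CPM to 208 and 223 CPM (-1.01 ± 0.12, edgeR adjusted p = 0.0019). TNXB, a tenascin of loose connective tissue, rose from 10.91 and 11.14 CPM to 108 and 92.5 CPM (3.19 ± 0.27, edgeR adjusted p = 0.0011). FN1, fibronectin, was at 955 and 888 CPM at E41 and at 2472 and 2513 CPM at E62 (1.44 ± 0.21, edgeR adjusted p = 0.0033). No library of one stage reached the range of the other for these 5 genes. ELN, the elastin gene itself and chosen after its values were seen, also fell (-1.09 ± 0.28, edgeR adjusted p = 0.027). Without 1 knockout library at a time, 3 to 4 genes of the list were higher, and 8, 6, 8 and 7 were lower without KO E41 replicate 1, KO E41 replicate 2, KO E62 replicate 1 and KO E62 replicate 2.

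Among 27 tested genes of mature fibroblasts and stroma, 9 rose and 3 fell (median 0.50). CFD, the complement factor D also known as adipsin, rose from 7.97 and 6.8 CPM to 24.6 and 31.2 CPM (1.92 ± 0.20, edgeR adjusted p = 0.0011). SFRP4, a secreted Wnt antagonist, rose from 53.5 and 49.6 CPM to 139.5 and 145 CPM (1.46 ± 0.18, edgeR adjusted p = 0.0019), and C1S, a complement protease, from 53.2 and 58 CPM to 118 and 183 CPM (1.43 ± 0.19, edgeR adjusted p = 0.0026). MFAP4, a microfibril-associated glycoprotein, fell from 472 and 555 CPM to 83.5 and 86.9 CPM (-2.59 ± 0.21, edgeR adjusted p = 0.00068). Both E41 libraries stood well above both E62 libraries for MFAP4, and below them for the other 3 genes. Among 20 regulators of limb connective tissue, 35% passed the test in either direction, near the 30.1% of all genes. EBF2, a factor tied to fat precursors, rose from 50.3 and 45.4 CPM to 161 and 176 CPM (1.82 ± 0.11, edgeR adjusted p = 0.00029). EBF3 of the same family went from 55.7 and 56.9 CPM to 101 and 128 CPM (1.02 ± 0.12, edgeR adjusted p = 0.0019). The regulators counted 3 higher and 4 lower, with 2, 2, 1 and 2 lower when KO E41 replicate 1, KO E41 replicate 2, KO E62 replicate 1 and KO E62 replicate 2 were left out, and PDGFRA, a receptor of mesenchymal cells chosen after its values were seen, did not pass (-0.19 ± 0.10, edgeR adjusted p = 0.2). Leaving out KO E41 replicate 1 or 2 or KO E62 replicate 2 brought the 9 stromal rises to 4, 5 and 6.

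**Figure D3:**
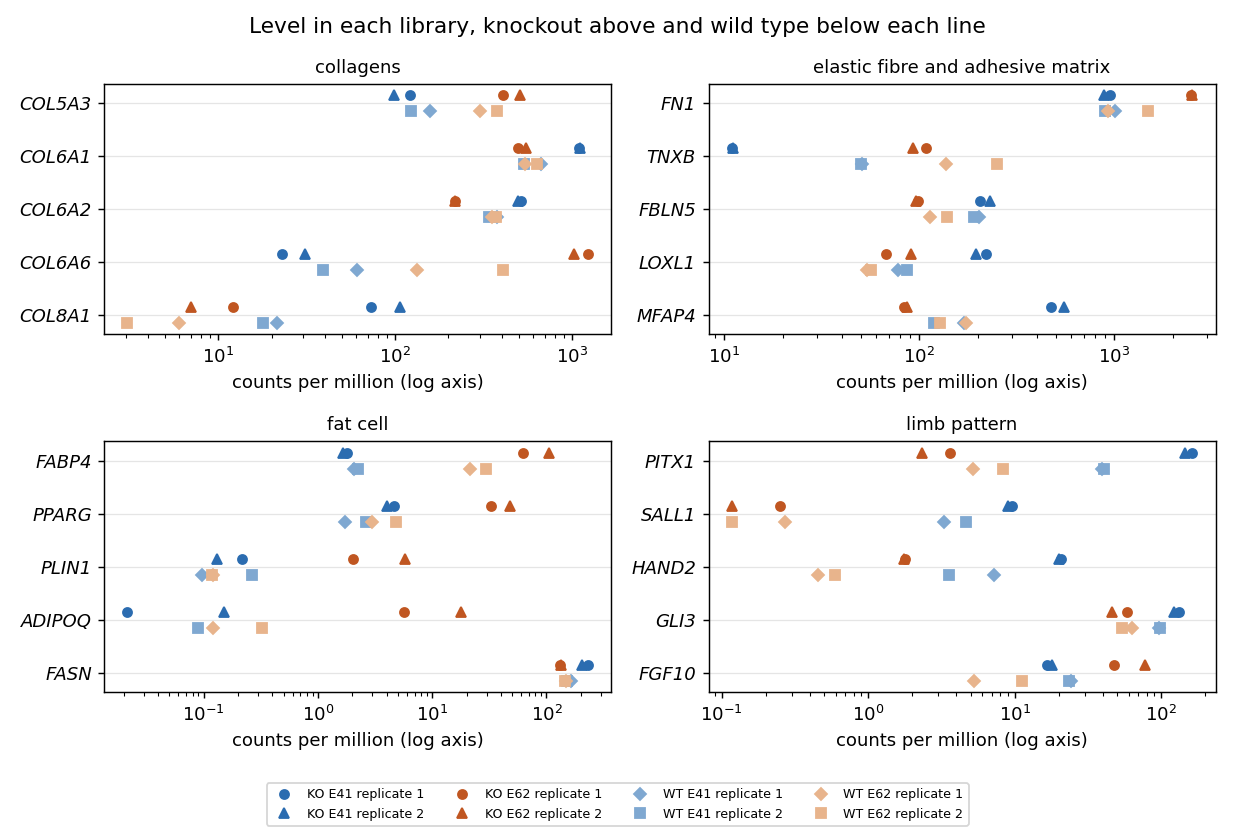
Level of 20 genes in each library, in CPM on a log axis, with knockout points above and wild-type points below each line; blue is E41, orange E62, and a library at 0 (wild-type E41 replicate 1 for ADIPOQ) is not drawn. In the knockout, COL6A6 reaches 1235 and 1026 CPM at E62 while COL6A1 and COL6A2 fall, and PITX1 goes from 164 and 146 CPM to 3.60 and 2.32 CPM.

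Matrix proteases and their inhibitors counted 7 higher and 6 lower of 24 (median 0.29). SERPINE2, a serine protease inhibitor, fell from 59.9 and 73.5 CPM to 26.9 and 26.8 CPM (-1.31 ± 0.15, edgeR adjusted p = 0.0014). RECK, a membrane-anchored inhibitor of metalloproteases, fell from 204 and 192 CPM to 65.8 and 69.9 CPM (-1.54 ± 0.11, edgeR adjusted p = 0.00036). TIMP4, a soluble inhibitor of the same enzymes, rose from 18.6 and 18.2 CPM to 51.4 and 94.8 CPM (1.99 ± 0.30, edgeR adjusted p = 0.0054). These inhibitors thus went in both directions, with no overlap between stages for any of the 3. Without KO E41 replicate 1 or 2, or KO E62 replicate 2, the higher and lower counts were 3 and 3, 3 and 3, and 4 and 5.

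Limb patterning factors fell, with 8 of 25 tested genes lower, 1 higher and a median of -1.05. SALL1, a zinc finger repressor of the limb bud, fell from 9.54 and 8.95 CPM to 0.251 and 0.117 CPM (-5.61 ± 0.47, edgeR adjusted p = 0.00059), a change of -6.27 without KO E62 replicate 1. HAND2, which sets the posterior limb bud, fell from 20.6 and 20.1 CPM to 1.79 and 1.77 CPM (-3.51 ± 0.33, edgeR adjusted p = 0.00083). GLI3, an effector of hedgehog signalling, fell from 133 and 122 CPM to 58.7 and 46.2 CPM (-1.28 ± 0.13, edgeR adjusted p = 0.0011). FGF10, a mesenchymal growth factor, was the 1 gene called higher, at 16.6 and 18 CPM at E41 and 47.7 and 77 CPM at E62 (1.85 ± 0.37, edgeR adjusted p = 0.015). The stages were apart for all 4 genes, although FGF10 lost its call without KO E41 replicate 1 (adjusted p = 0.1 in edgeR) or replicate 2 (0.083). Counts of lower genes were 6, 5, 8 and 6, and of higher genes 0, 0, 1 and 3, without KO E41 replicate 1, KO E41 replicate 2, KO E62 replicate 1 and KO E62 replicate 2.

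HOX genes, which encode position along the body and limb axes, went both ways, with 4 of 16 higher and 5 lower. HOXD4 rose from 2.56 and 2.21 CPM to 14 and 19.5 CPM (2.81 ± 0.34, edgeR adjusted p = 0.0019) and HOXC6 from 2.65 and 3.39 CPM to 11.8 and 15.5 CPM (2.18 ± 0.39, edgeR adjusted p = 0.007). HOXC11 fell from 16.6 and 14 CPM to 3.89 and 5.11 CPM (-1.77 ± 0.21, edgeR adjusted p = 0.0017) and HOXA10 from 77.5 and 83.1 CPM to 47.8 and 41.9 CPM (-0.84 ± 0.16, edgeR adjusted p = 0.0074). The other 2 rises were HOXC8 and HOXC9 and the other 3 falls HOXD12, HOXA11 and HOXA7, all chosen after their values were seen. HOXC6 had an adjusted p of 0.061 without KO E41 replicate 1, where the list held 1 higher and 2 lower. Leaving out KO E41 replicate 2, KO E62 replicate 1 or KO E62 replicate 2 gave 3 and 3, 5 and 3, and 4 and 3. Which stretch of the limb was dissected at each stage is not stated, so stage and position cannot be told apart for these genes.

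Wnt targets and modulators fell, with 11 of 23 lower, none higher and a median of -0.94. WNT5A, a ligand of limb outgrowth, fell from 85.3 and 104 CPM to 36.7 and 30.3 CPM (-1.50 ± 0.13, edgeR adjusted p = 0.00068), and WNT11 from 95.4 and 87.6 CPM to 45.2 and 50.8 CPM (-0.93 ± 0.14, edgeR adjusted p = 0.0039). FRZB, a secreted Wnt antagonist of cartilage, fell from 34.4 and 66.5 CPM to 5.38 and 7.13 CPM (-3.01 ± 0.36, edgeR adjusted p = 0.0032). NKD2, a feedback inhibitor of the pathway, fell from 30.2 and 27.3 CPM to 16.1 and 13.9 CPM (-0.94 ± 0.14, edgeR adjusted p = 0.0037). Ligands, an antagonist and a feedback inhibitor were thus all lower at E62, with stages that did not overlap. The list held 4 lower genes without KO E41 replicate 1, 6 without KO E41 replicate 2, 14 without KO E62 replicate 1 and 8 without KO E62 replicate 2. Several Wnt genes are also active in skin, and the skin list moved with KO E62 replicate 2; its part in the result was not tested.

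In the BMP and TGF-beta pathway, 11 of 28 genes were lower and 1 higher (median -0.51). The ligand gene GDF6 fell from 9.15 and 7.9 CPM to 1.15 and 0.651 CPM (-3.23 ± 0.49, edgeR adjusted p = 0.0037) and INHBB, an activin subunit, from 22.6 and 19.6 CPM to 6.85 and 6.41 CPM (-1.67 ± 0.25, edgeR adjusted p = 0.0034). CHRDL2, a BMP antagonist, fell from 1.08 and 2.5 CPM to 0.148 and 0.15 CPM (-3.56 ± 0.55, edgeR adjusted p = 0.004), a change of -2.84 without KO E41 replicate 2. SMAD9, a BMP signal transducer, rose from 5.86 and 7.51 CPM to 15.5 and 13.4 CPM (1.11 ± 0.21, edgeR adjusted p = 0.0074), with an adjusted p of 0.063 without KO E41 replicate 1. Stages did not overlap for any of the 4 genes. Lower genes of the pathway numbered 6, 5, 7 and 7 when KO E41 replicate 1, KO E41 replicate 2, KO E62 replicate 1 and KO E62 replicate 2 were left out.

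Hedgehog and Notch genes counted 8 lower and 2 higher of 19 (median -0.43). GLI2, a hedgehog effector, was at 42.9 and 42.3 CPM at E41 and 24 and 17.1 CPM at E62 (-1.05 ± 0.16, edgeR adjusted p = 0.0039), and the co-receptor gene BOC at 281 and 309.8 CPM and 163 and 190.1 CPM (-0.74 ± 0.10, edgeR adjusted p = 0.0028). HES1, the classic Notch target, was at 43.8 and 37.8 CPM and 12.8 and 15.1 CPM (-1.55 ± 0.20, edgeR adjusted p = 0.0026). JAG2, a Notch ligand, fell from 33.1 and 23 CPM to 14.2 and 13.6 CPM (-1.02 ± 0.17, edgeR adjusted p = 0.0054). Effector, co-receptor, target and ligand were each lower in both E62 libraries than in either E41 library. Lower genes numbered 5, 8, 6 and 5 and higher genes 1, 0, 2 and 2 without KO E41 replicate 1, KO E41 replicate 2, KO E62 replicate 1 and KO E62 replicate 2.

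Of 14 tested fetal growth and heterochronic genes, 8 were lower and none higher, with a median of -0.65 and no positive change among all 14. IGF2BP1, an RNA-binding protein of fetal tissue, fell from 23.2 and 19 CPM to 5.68 and 5.97 CPM (-1.85 ± 0.14, edgeR adjusted p = 0.00042), and IGF2BP2 from 159 and 158 CPM to 79.6 and 77.4 CPM (-1.01 ± 0.10, edgeR adjusted p = 0.00098). HMGA1, a chromatin protein of growing tissue, fell from 135 and 102 CPM to 43.7 and 29.1 CPM (-1.70 ± 0.24, edgeR adjusted p = 0.0038). PLAG1, a growth-promoting zinc finger factor, fell from 16.4 and 16 CPM to 8.34 and 8.76 CPM (-0.92 ± 0.15, edgeR adjusted p = 0.0041). Replicates were close and stages apart for each, and the list held 6 to 7 lower genes whichever knockout library was left out.

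IGF and FGF pathway genes counted 10 lower and 2 higher of 24 (median -0.33). IGF1R, the receptor, fell from 87 and 69 CPM to 40.9 and 43.3 CPM (-0.89 ± 0.12, edgeR adjusted p = 0.0025). The binding protein genes IGFBP4 and IGFBP2 fell, from 486 and 433 CPM to 137 and 196 CPM (-1.46 ± 0.19, edgeR adjusted p = 0.0025) and from 238 and 203 CPM to 97.8 and 63.8 CPM (-1.45 ± 0.23, edgeR adjusted p = 0.0056). IGFBP7, a binding protein gene of vessels, rose from 105 and 111 CPM to 173 and 232 CPM (0.91 ± 0.15, edgeR adjusted p = 0.0043). Stages did not overlap for these 4 genes. IGF1, the ligand, went from 5.6 and 8.92 CPM to 16.9 and 16.8 CPM (1.21 ± 0.32, edgeR adjusted p = 0.026), with an adjusted p of 0.15 without KO E41 replicate 1, 0.058 without KO E62 replicate 1 and 0.071 without KO E62 replicate 2. Lower genes of the list numbered 4 without KO E41 replicate 2 and 5 without KO E62 replicate 2, and 1 gene was higher without KO E41 replicate 1 or either KO E62 replicate.

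Imprinted growth genes counted 5 lower and 1 higher of 13 (median -0.33). PEG10, a retrotransposon-derived gene, fell from 1014 and 875 CPM to 384 and 212 CPM (-1.67 ± 0.27, edgeR adjusted p = 0.0047) and PEG3, a zinc finger gene, from 40.1 and 32.2 CPM to 19.7 and 18.7 CPM (-0.91 ± 0.14, edgeR adjusted p = 0.0035). PHLDA2, a growth-restraining gene, fell from 2.78 and 3.04 CPM to 0.797 and 0.701 CPM (-1.95 ± 0.24, edgeR adjusted p = 0.0019), and DIRAS3, a small GTPase gene, from 6.5 and 12.2 CPM to 1.99 and 2.37 CPM (-2.10 ± 0.37, edgeR adjusted p = 0.0065). Each of these was lower in both E62 libraries. IGF2R, which clears the IGF2 ligand, was the 1 rise (1.20 ± 0.35, edgeR adjusted p = 0.048) and lost its call without KO E62 replicate 1 (adjusted p = 0.14 in edgeR) or replicate 2 (0.11); leaving out KO E41 replicate 1 gave a change of 0.74 and leaving out KO E41 replicate 2 one of 1.87.

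Cell cycle genes fell modestly, with 11 of 27 lower, 1 higher and a median of -0.30. TOP2A, a topoisomerase of dividing cells, was at 427 and 421 CPM at E41 and 287 and 263 CPM at E62 (-0.63 ± 0.10, edgeR adjusted p = 0.0037). The replication helicase genes MCM2 (-0.71 ± 0.11, edgeR adjusted p = 0.0037), MCM3 (-0.56 ± 0.09, edgeR adjusted p = 0.0044) and MCM5 (-0.79 ± 0.13, edgeR adjusted p = 0.005) also fell. The mitotic genes CDK1 (-0.13 ± 0.12, edgeR adjusted p = 0.43) and BUB1 (0.09 ± 0.12, edgeR adjusted p = 0.59), chosen after their values were seen, did not pass the test. Counts of lower genes were 6, 7, 11 and 6 without KO E41 replicate 1, KO E41 replicate 2, KO E62 replicate 1 and KO E62 replicate 2. Among 15 cell cycle inhibitors and quiescence genes, 4 fell and 2 rose. GAS1, a growth arrest gene that also serves hedgehog reception, fell from 81.9 and 65.3 CPM to 6.67 and 7.41 CPM (-3.39 ± 0.15, edgeR adjusted p = 0.00016). CDKN1C, an imprinted inhibitor of cyclin-dependent kinases, fell from 49.2 and 44.6 CPM to 6.46 and 4.15 CPM (-3.14 ± 0.54, edgeR adjusted p = 0.012), with adjusted p values of 0.063, 0.053 and 0.065 without KO E41 replicate 1, KO E41 replicate 2 and KO E62 replicate 2. The list of inhibitors held 2, 2, 4 and 3 lower and 0, 1, 3 and 1 higher genes without KO E41 replicate 1, KO E41 replicate 2, KO E62 replicate 1 and KO E62 replicate 2. For both genes the lower E41 library was still above both E62 libraries.

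Macrophage genes rose, with 14 of 21 higher, none lower and a median of 1.40. Their summed level was 405 and 403 CPM at E41 and 1214 and 1170.2 CPM at E62. STAB1, a scavenger receptor of tissue macrophages and some vessels, rose from 59 and 50.2 CPM to 279 and 306 CPM (2.42 ± 0.17, edgeR adjusted p = 0.00039). The subunit genes of complement C1q, which macrophages make, rose together. C1QA went from 30.2 and 29 CPM to 91.9 and 86.4 CPM (1.59 ± 0.13, edgeR adjusted p = 0.00052), C1QB from 34.5 and 33.4 CPM to 147 and 142 CPM (2.09 ± 0.20, edgeR adjusted p = 0.0011) and C1QC from 16.1 and 16.3 CPM to 75.4 and 85.4 CPM (2.31 ± 0.20, edgeR adjusted p = 0.00083). Within each stage the replicates of all 4 genes were close, and the stages did not overlap. The list held 8 higher genes without either E41 replicate, 11 without KO E62 replicate 1 and 9 without KO E62 replicate 2. CD14 (0.48 ± 0.31, edgeR adjusted p = 0.26) and MRC1 (0.89 ± 0.48, edgeR adjusted p = 0.21), a co-receptor for endotoxin and the mannose receptor, both chosen after their values were seen, did not pass.

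Other blood cell genes counted 6 higher and 1 lower of 17 (median 1.17). PTPRC, the common leukocyte antigen CD45, rose from 4.11 and 4.67 CPM to 15.5 and 22.7 CPM (2.12 ± 0.33, edgeR adjusted p = 0.0043). MS4A2, a mast cell receptor subunit, was at 0.646 and 1.06 CPM and then 2.85 and 6.32 CPM (2.42 ± 0.49, edgeR adjusted p = 0.01), with an adjusted p of 0.083 without KO E41 replicate 1 and a change of 1.73 with an adjusted p of 0.056 without KO E62 replicate 2. S100A8, a calcium-binding protein of neutrophils, fell from 42.4 and 27.1 CPM to 0.339 and 2.62 CPM (-4.57 ± 0.91, edgeR adjusted p = 0.019), a change of -3.74 without KO E62 replicate 1 and -6.67 without KO E62 replicate 2, with adjusted p values of 0.089 and 0.064 without KO E41 replicate 1 and 2. The list held 1, 2 and 3 higher genes without KO E41 replicate 1, KO E41 replicate 2 and KO E62 replicate 2. Red blood cell genes counted none higher and 1 lower of 16, but 4 higher and none lower without KO E62 replicate 1. The 1 fall, TFRC, the transferrin receptor, lost its call without KO E62 replicate 1 or 2 (adjusted p = 0.06 and 0.075 in edgeR). HBB, a haemoglobin chain with close paralogs and therefore uncertain, was chosen after its values were seen and stood at 4429 and 9234 CPM and 4335 and 8014 CPM (-0.15 ± 0.69, edgeR adjusted p = 0.89).

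Antigen presentation genes rose, with 11 of 13 tested genes higher and none lower (median 1.45). B2M, the light chain of class I molecules, rose from 62.3 and 59.7 CPM to 162 and 171 CPM (1.45 ± 0.10, edgeR adjusted p = 0.00036). PSMB8, an immunoproteasome subunit, rose from 2 and 2 CPM to 5.69 and 8.73 CPM (1.85 ± 0.29, edgeR adjusted p = 0.0038), TAP2, a peptide transporter, from 5.4 and 4.93 CPM to 11.7 and 13.7 CPM (1.30 ± 0.20, edgeR adjusted p = 0.0036) and SLA-DMB, a class II chaperone chain, from 5.96 and 6.88 CPM to 13 and 15.3 CPM (1.14 ± 0.17, edgeR adjusted p = 0.0034). Both stages stood apart for each gene. Class I and class II chain genes are close paralogs, so estimated counts may divide their reads. Without KO E41 replicate 1 or 2, or KO E62 replicate 2, the list held 5, 4 and 6 higher genes.

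Interferon-stimulated genes counted 10 higher and none lower of 24 (median 0.83). IFIT1 rose from 0.689 and 0.586 CPM to 10.4 and 18.9 CPM (4.52 ± 0.42, edgeR adjusted p = 0.00083), IFIT2 from 3.08 and 3.34 CPM to 12.1 and 14.9 CPM (2.07 ± 0.17, edgeR adjusted p = 0.00059) and IFIT3 from 2.82 and 2.26 CPM to 10.5 and 10.4 CPM (2.04 ± 0.24, edgeR adjusted p = 0.0017). These 3 genes encode RNA-binding antiviral proteins and are close paralogs, so the split of reads among them is uncertain. OAS2, a sensor of double-stranded RNA, rose from 6.91 and 6.14 CPM to 24.7 and 24.7 CPM (1.92 ± 0.22, edgeR adjusted p = 0.0015). The stages did not overlap for any of the 4. ISG15 (1.17 ± 0.43, edgeR adjusted p = 0.073), a ubiquitin-like protein, and MX1 (0.52 ± 0.43, edgeR adjusted p = 0.38), an antiviral GTPase, both chosen after their values were seen, did not pass. The list held 8, 9, 10 and 12 higher genes when KO E41 replicate 1, KO E41 replicate 2, KO E62 replicate 1 and KO E62 replicate 2 were left out. The macrophage list rose with stage, as did the interferon and antigen presentation lists, and its part in these results was not tested. Between KO E62 replicates 1 and 2 the antigen presentation sum differed, at 312 and 443 CPM. The macrophage sum was 1214 and 1170 CPM there and the interferon sum 472 and 448 CPM.

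Schwann cell and glial genes fell, with 9 of 17 lower, 1 higher and a median of -1.26. SOX10, the master regulator of Schwann cells, fell from 29.8 and 18.6 CPM to 5.09 and 5.22 CPM (-2.23 ± 0.33, edgeR adjusted p = 0.004). FOXD3, a neural crest factor, fell from 4.13 and 2.43 CPM to 0.561 and 0.417 CPM (-2.74 ± 0.36, edgeR adjusted p = 0.0023) and ERBB3, the neuregulin receptor, from 59.9 and 41.8 CPM to 22.5 and 14.5 CPM (-1.46 ± 0.24, edgeR adjusted p = 0.0057). GFRA3, a receptor for the neurotrophic factor artemin, was the 1 rise (1.19 ± 0.26, edgeR adjusted p = 0.014), with adjusted p values of 0.074 and 0.086 without KO E41 replicate 1 and 2 and a change of 0.69 without KO E62 replicate 2. The myelin gene MBP (-0.98 ± 0.34, edgeR adjusted p = 0.072), chosen after its values were seen, did not pass. Among 15 neuronal and axonal transcripts 3 (20%) fell, near the 18.0% of all genes that were lower. STMN2, a growth cone protein, led them and fell from 363 and 349.8 CPM to 53.9 and 37.5 CPM (-2.96 ± 0.41, edgeR adjusted p = 0.0052). Stages did not overlap for SOX10, FOXD3, ERBB3 or STMN2. Schwann genes counted 3 lower without KO E41 replicate 1 and 7 to 8 without any 1 of the other 3 libraries. Lower neuronal genes numbered 2, 1, 3 and 1 without KO E41 replicate 1, KO E41 replicate 2, KO E62 replicate 1 and KO E62 replicate 2.

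Endothelial genes counted 4 higher and 1 lower of 20 (median 0.22), a share below the 30.1% of all genes. PROX1, the master regulator of lymphatic endothelium, rose from 6.39 and 5.32 CPM to 19 and 33.1 CPM (2.15 ± 0.29, edgeR adjusted p = 0.0025) and GJA4, a connexin of arteries, from 23.2 and 17.8 CPM to 45.5 and 64.8 CPM (1.43 ± 0.20, edgeR adjusted p = 0.0031). CDH5, the cadherin of all endothelium and chosen after its values were seen, overlapped between stages at 239.6 and 215 CPM and 192 and 305 CPM (0.13 ± 0.22, edgeR adjusted p = 0.67). Without KO E62 replicate 1, 12 endothelial genes were higher, and without KO E41 replicate 1 or 2 there were 2. Without KO E62 replicate 2 the list held 3 higher and 3 lower with a median of -0.12. KO E62 replicate 2 had the higher endothelial sum, 2419 CPM against 1572 CPM in replicate 1. Smooth muscle and pericyte genes counted 5 higher and 3 lower of 18, against 2 and 2 without KO E41 replicate 1 and 3 and 3 without KO E41 replicate 2. ACTA2, smooth muscle actin, rose from 66.5 and 66.7 CPM to 129 and 116 CPM (0.88 ± 0.12, edgeR adjusted p = 0.0029) and TAGLN, an actin-binding protein, from 52.7 and 55.9 CPM to 131 and 92 CPM (1.04 ± 0.15, edgeR adjusted p = 0.0033). DES, the intermediate filament gene desmin of all muscle types, fell from 21.8 and 17.6 CPM to 5.05 and 7.74 CPM (-1.63 ± 0.22, edgeR adjusted p = 0.0025). Stages did not overlap for PROX1, GJA4, ACTA2, TAGLN or DES.

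Cartilage genes had the lowest median of any list, -4.70. In edgeR only 4 of 21 (19%) passed the test, near the 18.0% of all genes that were lower, and none was higher. The count depended on the method, as DESeq2 called 17 of the 21 lower and limma-voom 3. COL2A1, the main collagen of cartilage, was at 248 and 2216 CPM at E41 and 71.3 and 23.6 CPM at E62 (-4.70 ± 1.38, edgeR adjusted p = 0.063). ACAN, the aggrecan gene, was at 6.48 and 201 CPM and 3.41 and 0.818 CPM (-5.60 ± 2.10, edgeR adjusted p = 0.11). In both genes, chosen after their values were seen, KO E41 replicate 2 was far above replicate 1. Without KO E41 replicate 2 the list's median was -1.57 with 1 lower gene; without KO E41 replicate 1 it was -5.55 with 8 lower genes. The calls of SOX5 (-1.53 ± 0.26, edgeR adjusted p = 0.0055) and SOX6 (-1.77 ± 0.35, edgeR adjusted p = 0.014), partners of SOX9 in cartilage, were lost without KO E41 replicate 2 (adjusted p = 0.054 and 0.071 in edgeR). Without KO E62 replicate 1 or 2 the list had 2 lower genes each.

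Tendon genes counted 5 of 14 lower, 1 higher and a median of -1.33. Their summed level was 1888 and 3116 CPM at E41 and 1597 and 1387 CPM at E62, highest in KO E41 replicate 2, where the cartilage list was also highest. SCX, the transcription factor of tendon progenitors, was at 2.71 and 5.43 CPM and then at 0.62 and 0.234 CPM (-3.24 ± 0.59, edgeR adjusted p = 0.007), a change of -2.66 to -4.11 over the left-out libraries. FMOD, a collagen-binding proteoglycan, was at 968 and 1200.1 CPM and 559 and 531 CPM (-0.99 ± 0.24, edgeR adjusted p = 0.02) and lost its call without KO E41 replicate 2, KO E62 replicate 1 or KO E62 replicate 2 (adjusted p = 0.1, 0.06 and 0.089 in edgeR). Stages did not overlap for SCX or FMOD. Tendon genes counted 3, 2, 3 and 1 lower without KO E41 replicate 1, KO E41 replicate 2, KO E62 replicate 1 and KO E62 replicate 2. Of 18 bone genes 4 were higher and 1 lower, with a median of -0.54. The share called in either direction was 27.8%, near the 30.1% of all genes. ACP5, the acid phosphatase of osteoclasts, rose from 7.38 and 7.47 CPM to 56.2 and 28.1 CPM (2.51 ± 0.31, edgeR adjusted p = 0.0024). Its change was 1.91 without KO E62 replicate 1. ALPL, the phosphatase of bone-forming cells, fell from 27.9 and 48.6 CPM to 8.25 and 5.09 CPM (-2.52 ± 0.37, edgeR adjusted p = 0.005). It was the 1 bone gene called lower in edgeR, whereas DESeq2 called 6 lower and limma-voom 4. The other 3 rises of the bone list, CTSK, OSCAR and TNFRSF11A, are also osteoclast genes; CTSK had an adjusted p of 0.09 without KO E41 replicate 1 and 0.061 without KO E62 replicate 2, OSCAR lost its call without any 1 of the 4 knockout libraries, and TNFRSF11A was named after its values were seen. The bone list held 1, 2, 3 and 2 higher genes without KO E41 replicate 1, KO E41 replicate 2, KO E62 replicate 1 and KO E62 replicate 2.

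Skin epithelium genes, which entered as a check on the dissection, counted 2 lower and none higher of 21 (median -1.57). KRT18, a keratin of simple epithelium, fell from 10.7 and 9.36 CPM to 0.87 and 0.317 CPM (-4.06 ± 0.60, edgeR adjusted p = 0.0043), with no overlap between stages and a change of -4.98 without KO E62 replicate 1. Without KO E62 replicate 1, which left replicate 2 as the only E62 library, 19 skin genes were lower and the median was -5.86; in each of the other 3 fits 1 was lower. Pigment cell genes counted 1 lower of 10, and 4 lower without KO E62 replicate 1.

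Genes of the muscle lineage moved in different directions, and not all of them were low. The 16 progenitor and migration factors summed to 313 to 407 CPM in the knockout libraries, against 700 to 1067 CPM in the wild-type libraries. PAX7, the marker of muscle stem cells, had 84 and 18 counts at E41 and 0 and 1 counts at E62, a ratio of 141-fold lower (total counts scaled by library) with an exact 95% counting interval of 24.7 to 5616 (edgeR adjusted p = 0.02). The E41 replicates differed, and the call was lost without KO E62 replicate 1 (0.086) or replicate 2 (0.081). LBX1, a factor of migrating progenitors, fell from 0.753 and 0.608 CPM to 0.118 and 0.0334 CPM (-3.08 ± 0.48, edgeR adjusted p = 0.0039), a change of -2.50 to -4.23 over the left-out libraries. PAX3 had 96 and 81 counts at E41 and 75 and 19 counts at E62 and did not pass (-1.42 ± 0.85, edgeR adjusted p = 0.24). MYOD1 counts rose with stage (log2 change 1.32, edgeR adjusted p = 0.0086), and what those reads come from in knockout tissue was not tested. DMRT2, a somite factor, rose from 28.1 and 27.9 CPM to 65.4 and 79.9 CPM (1.38 ± 0.16, edgeR adjusted p = 0.0017). Of 16 progenitor and migration factors 2 were higher and 5 lower (median -0.54), with 2 to 4 higher and 3 to 4 lower when 1 knockout library was left out. Of 30 muscle fibre genes 8 were higher and 5 lower (median 0.18), all of them at under 10 CPM in every knockout library. These calls depended on the fit, whose low-count filter also took in the wild-type libraries. With the knockout groups fitted alone, 23 fibre genes were tested, 1 higher and 2 lower. In limma-voom 0 were higher and 1 lower. For fibre genes, leaving out KO E41 replicate 1 gave 0 higher and 4 lower, KO E41 replicate 2 gave 2 and 1, KO E62 replicate 1 gave 6 and 6, and KO E62 replicate 2 gave 5 and 4.

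Hypoxia response genes counted 7 lower and 2 higher of 19. SLC2A1, the glucose transporter GLUT1, fell from 190.2 and 158 CPM to 47.2 and 46.7 CPM (-1.89 ± 0.18, edgeR adjusted p = 0.001). VEGFA, the vessel growth factor, rose from 17.4 and 24.6 CPM to 59.99 and 79.9 CPM (1.73 ± 0.26, edgeR adjusted p = 0.0045), and ADM, the peptide adrenomedullin, from 5.38 and 5.8 CPM to 38.4 and 32.9 CPM (2.67 ± 0.40, edgeR adjusted p = 0.0051). The stages were apart for all 3 genes, and ADM lost its call without KO E41 replicate 1 (adjusted p = 0.05 in edgeR). Lower genes of the list numbered 4, 1 and 4 without KO E41 replicate 1, KO E41 replicate 2 and KO E62 replicate 2. Steroid, thyroid and retinoid response genes counted 8 lower and 3 higher of 27. PER1, a clock gene that glucocorticoids induce, fell from 96.4 and 100.4 CPM to 49 and 51 CPM (-0.98 ± 0.08, edgeR adjusted p = 0.00052). RARG, a retinoic acid receptor, fell from 117 and 125 CPM to 56.8 and 51.8 CPM (-1.16 ± 0.12, edgeR adjusted p = 0.0012). That list held 3, 2, 3 and 6 lower and 0, 0, 2 and 2 higher genes without KO E41 replicate 1, KO E41 replicate 2, KO E62 replicate 1 and KO E62 replicate 2. Of the immediate early and heat shock genes, 3 rose and 4 fell of 21, against 1 and 1 without KO E41 replicate 1, 3 and 1 without replicate 2 of that group, 3 and 2 without KO E62 replicate 1 and 1 and 2 without KO E62 replicate 2. The main fit thus called 33.3% of this list in either direction, near the 30.1% of all genes. HSPB1, a small heat shock protein, fell from 137 and 121 CPM to 72.7 and 78.8 CPM (-0.77 ± 0.10, edgeR adjusted p = 0.0025), with both E62 libraries below both E41 libraries. Respiratory chain genes passed the test in 2 of 22 cases, mitochondrially encoded genes in none of 13 and ribosomal protein genes in 1 of 15.

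**Figure D4:**
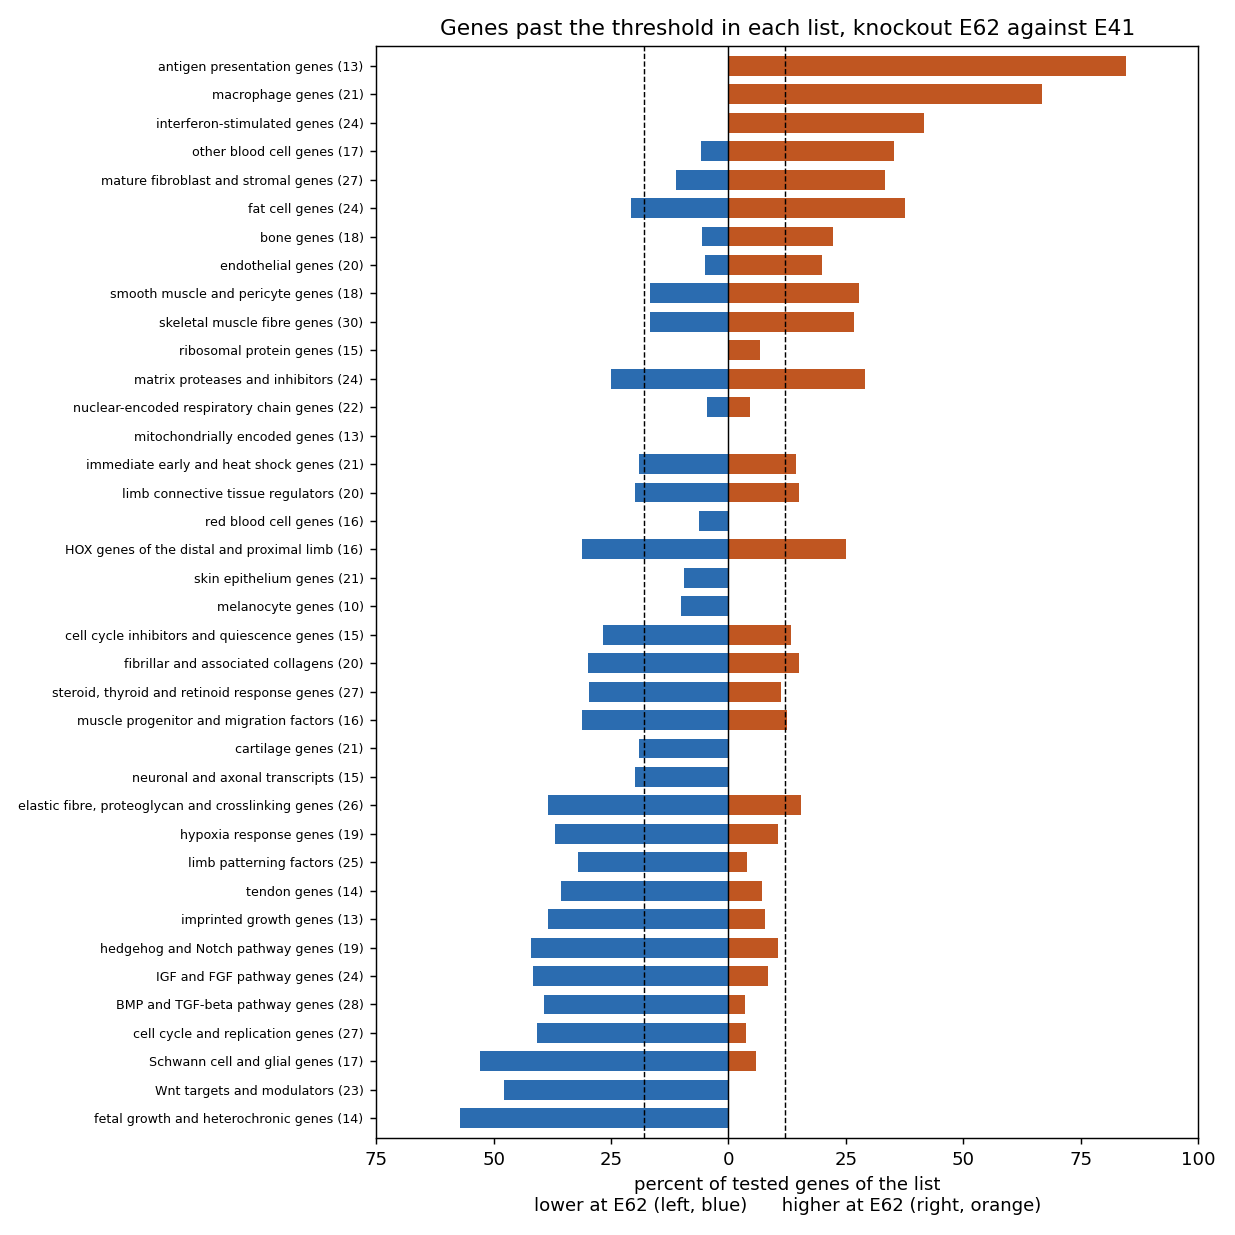
Percentage of the tested genes of each list that were higher at E62 (orange, right) or lower (blue, left) in the knockout, with the number of tested genes in parentheses; dashed lines mark 12.1% and 18.0%, the shares over all genes. Antigen presentation and macrophage genes reach farthest to the right, and fetal growth, Schwann cell and Wnt genes farthest to the left.

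The same stage contrast in wild-type muscle passed the test for 6782 genes (39.8%), 3373 (19.8%) higher and 3409 (20.0%) lower. Genes higher in both genotypes numbered 692, which is 33.5% of the knockout rises and 20.5% of the wild-type rises. Lower in both were 1034 genes, 33.8% of the knockout falls and 30.3% of the wild-type falls. A further 638 genes were lower in the knockout and higher in the wild type, 20.8% of the knockout falls, near the 19.8% of all genes. The reverse held for 185 genes, 8.96% of the knockout rises against 20.0% of all genes. The change itself differed between genotypes for 4553 genes (26.8%) by the interaction test in edgeR, 1913 (11.2%) with the knockout change above that of the wild type and 2640 (15.5%) below. Each group of libraries has its own number in the names, so the interaction cannot be told apart from any litter or batch these numbers mark. Wild-type libraries are muscle, so cell makeup differs between the genotypes at both stages. In the wild type the summed skin list went from 1089 and 1892 CPM to 43.5 and 45.1 CPM. The interaction held 2499 genes with KO E41 replicate 1 left out and 2685 with KO E41 replicate 2 left out.

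Cell cycle genes fell less in the knockout, with 26 of 27 lower in the wild type at a median of -1 on the log2 scale and 16 of 27 past the interaction test, all with the knockout above. CENPF, a kinetochore protein, was at 190.2 and 184 CPM and 66.2 and 69.1 CPM in the wild type and at 102 and 96.3 CPM and 116 and 92.6 CPM in the knockout (difference of changes 1.54 ± 0.16, edgeR adjusted p = 0.0011). Imprinted genes differed the other way, with a wild-type median of 0.90 against -0.33 and 6 of 13 genes past the interaction test with the knockout below and 1 above. PEG10 rose from 3182 and 2898 CPM to 6708 and 7539 CPM in the wild type, where it fell in the knockout (difference -2.89 ± 0.37, edgeR adjusted p = 0.0023). GAS1 was at 13.2 and 11.3 CPM and then 22.6 and 21.1 CPM in the wild type (difference -4.22 ± 0.21, edgeR adjusted p = 2e-04). CENPF was chosen after its values were seen and did not pass the stage test in the knockout.

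Macrophage genes passed the interaction test in 8 of 21 cases and interferon-stimulated genes in 7 of 24, all with the knockout above. C1QC stood at 20.5 and 12.6 CPM and 14.3 and 14.5 CPM in the wild type (difference 2.51 ± 0.29, edgeR adjusted p = 0.0017), and IFIT1 at 0.821 and 1.59 CPM and 1.74 and 1.86 CPM (difference 3.95 ± 0.56, edgeR adjusted p = 0.003). Fat cell genes passed the interaction test in 10 of 24 cases, 4 with the knockout above and 6 below. In the wild type 9 genes of that list were higher and 5 lower, with a median of 0.74 against 0.16 in the knockout. PLIN1 was at 0.0966 and 0.265 CPM and 0.12 and 0.118 CPM in the wild type (difference 5.07 ± 1.11, edgeR adjusted p = 0.014), whereas ADIPOQ did not pass (4.84 ± 2.61, edgeR adjusted p = 0.21). COL6A1 did not pass the stage test in the wild type (668 and 535 CPM and then 539.6 and 637 CPM; difference -1.05 ± 0.20, edgeR adjusted p = 0.0084), and MFAP4 stood at 169 and 119 CPM and 173 and 128 CPM there (difference -2.66 ± 0.29, edgeR adjusted p = 0.0014). IGF2BP1 fell in both genotypes, and the difference of its changes did not pass (-0.02 ± 0.19, edgeR adjusted p = 0.95). Ribosomal protein genes, whose close copies make them uncertain, fell in 11 of 15 cases in the wild type and in none in the knockout, and 6 of 15 passed the interaction test with the knockout above.

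**Figure D5:**
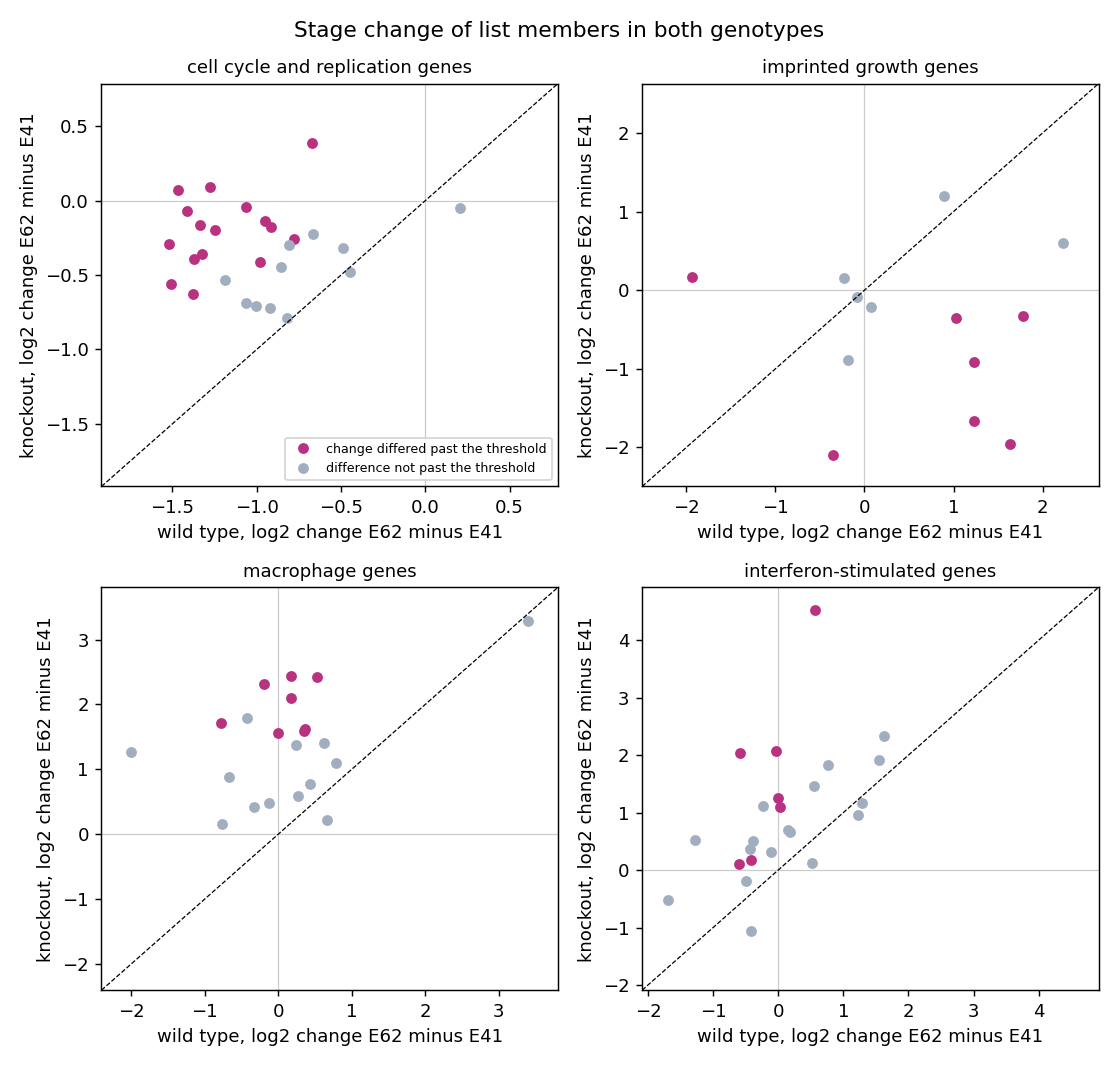
Log2 change from E41 to E62 of the tested genes of 4 lists, in the wild type (x axis) and the knockout (y axis); the dashed line marks equal change, and purple points passed the interaction test. Of the cell cycle genes 16 of 27 are purple and above the line, as are 8 of 21 macrophage and 7 of 24 interferon-stimulated genes, while 6 of 13 imprinted genes are purple and below it.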

How the data were processed

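RNA sequencing libraries of pig limb tissue were analysed, 2 per group for knockout and wild type at E41 and E62. The deposited values are estimated counts per gene, made by the authors before deposit; kallisto and DESeq2 appear as tools in the submitters' processing notes, which list susScr11 and Sscrofa11.1 as builds. What each tool did, and which annotation release served, is not given in the sources used here. The values were rounded to whole numbers. Of 22516 genes, 17020 passed edgeR's filterByExpr with a minimum count of 10, and 15527 (69%) had a symbol.

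One mean per group was fitted over all 8 libraries with edgeR 4.0.16 in R 4.3.3 (TMM scaling, robust quasi-likelihood F test, 4 residual degrees of freedom), and Benjamini-Hochberg adjustment ran over all tested genes with a threshold of 0.05. Standard errors are the log2 change divided by the square root of F. Contrasts were E62 minus E41 in the knockout, the same in the wild type, and their difference (interaction). Coordinates come from the RefSeq table of Sscrofa11.1. The script was tested on simulated data for the knockout contrast over 16673 genes: 32, 46, 46 and 50 of 50 genes changed 2-, 4-, 8- and 16-fold were recovered, with 18 calls among unchanged genes.

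The 38 gene lists and the comparison were chosen with earlier results of these data known; 753 of 834 list entries were tested. Named genes were the 6 label-check genes, 12 rises and 12 falls, the greatest by log2 change among genes that had a symbol, averaged 2 CPM or more in the knockout and did not overlap between stages, from each list at most 4 genes by lowest p plus at most 2 that went against most of its calls, and the 6 largest differences each way between genotypes. Which list genes are printed was decided after values were seen, and others are said to be chosen so. Alternatives were DESeq2 1.42.0, limma-voom (limma 3.58.1), relative log expression factors, library size alone, other filters, counts thinned to the smallest library, a replicate block, a 2-fold threshold, only the groups compared, and each library left out. Some items are not reported here.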

Additional observations from a re-analysis of the deposited data

Results flagged for a closer look

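The change from E41 to E62 differed between knockout and wild type for 4553 genes by the interaction test in edgeR, and the 6 largest differences each way were looked at again. Values below are the log2 change in the knockout minus that in the wild type, and counts are given for replicates 1 and 2.

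RANBP3L rose from 11 and 13 counts to 249 and 581 counts in the knockout and went from 121 and 83 counts to 15 and 16 counts in the wild type, a difference of 8.03 (edgeR adjusted p = 0.00099). GLIS1, a zinc finger factor, differed by 8.17 and IRX2, an Iroquois homeodomain factor, by 7.62. SPTLC3, a subunit of the enzyme that starts sphingolipid synthesis, differed by 7.81, PCSK2, a prohormone convertase, by 6.98 and DSG3, a desmosomal cadherin of skin, by 7.66. GLIS1, SPTLC3, DSG3, IRX2 and PCSK2 had at most 2 counts in either wild-type E62 library, so their fitted differences depend on the prior count and are no bound. The skin list stood at 43.5 and 45.1 CPM in the same wild-type E62 libraries, and its part in these differences was not tested. DSG3 lost its call without KO E41 replicate 2 and without each wild-type library, with adjusted p values up to 0.34 over the alternatives run.

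Of the genes with the knockout below, PAX7 differed by -6.94 and VGLL2, a cofactor of muscle TEAD factors, by -6.15. Both had at most 1 count in either KO E62 library, so these fitted differences too depend on the prior count and are no bound. VGLL2 had 3 and 10 counts at E41 and 0 at E62 in the knockout, at least 5.98-fold lower against a floor of 3 counts over the group. PAX7 lost its call without either KO E62 replicate or any 1 wild-type library, with adjusted p values up to 0.11. LRRC38, a potassium channel subunit, differed by -6.11 and EEF1A2, the elongation factor of mature muscle and nerve, by -5.60. DLK2, a relative of the Notch ligand-like DLK1, went from 663 and 409 counts to 62 and 14 counts in the knockout and from 158 and 191 counts to 1153 and 662 counts in the wild type, a difference of -6.06. SLITRK1, a neuronal membrane protein, differed by -5.61.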

How the results depend on the processing

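Requiring at least a 2-fold change left 344 knockout genes (117 higher, 227 lower), 636 wild-type genes and 559 interaction genes (142 above, 417 below). With 1 library left out, the knockout count ran from 1906 to 5022 (higher 580 to 2353, lower 1326 to 2702), the wild-type count from 4491 to 6885, and the interaction count from 2499 to 4282 (above 827 to 1854, below 1672 to 2428). The lowest knockout and interaction counts came without KO E41 replicate 1, and the wild-type count of 4491 without WT E62 replicate 2. The interaction count above was 917 without KO E41 replicate 2, 1202 without WT E41 replicate 1 and 1243 without WT E62 replicate 1. The cause of these shifts was not tested. DESeq2, limma-voom, other scalings, filters, thinning and the compared groups alone gave 4666 to 6134 knockout genes.

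With the replicate number as a replicate block, 4435 knockout genes passed (1751 higher, 2684 lower), 6109 in the wild type and 3851 in the interaction (1548 above, 2303 below). Same-numbered knockout libraries of the 2 stages deviated with a correlation of 0.081. Whether the samples share more than a number cannot be decided from it, because the cartilage and skin lists also set replicates apart. Of 173 named genes past the threshold, 50 passed in every alternative that gave a value, 112 without each knockout library, and 0 reversed.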
